A study of Arabidopsis thaliana with 6 samples.

Results

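Suberin is a polyester of fatty acids, fatty alcohols, glycerol and ferulate that root cells lay down as lamellae on the inner face of their walls. In young roots it surrounds the endodermis and in older roots the periderm, where it limits the passage of water and solutes. Its aliphatic monomers are made in the endoplasmic reticulum, where fatty acids are elongated, then oxidized at the far end of the chain or reduced to alcohols, joined to glycerol or ferulate, and finally exported across the plasma membrane. Members of this pathway are grouped here by these steps.

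The 10 genes described here were taken from the literature on root suberin by locus, and each has 1 probe set among the 27827 of the array. They are *KCS2* (AT1G04220) and *KCS20* (AT5G43760) for elongation, *CYP86A1* (AT5G58860) and *CYP86B1* (AT5G23190) for oxidation, *FAR1* (AT5G22500), *FAR4* (AT3G44540) and *FAR5* (AT3G44550) for reduction, *GPAT5* (AT3G11430) and *ASFT* (AT5G41040) for acyl transfer, and *ABCG2* (AT2G37360) for export. The table of gene names lists all of them as protein coding, and gives *ASFT* as *RWP1* with *ASFT* as a synonym. Another locus, AT4G15090, also bears the symbol *FAR1* there and is not the gene meant here.

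RNA came from whole *Arabidopsis thaliana* seedlings of the accession Col-0 (wildtype) and of *naa20-1*, the T-DNA insertion line SALK_027687 of the catalytic subunit of the N-terminal acetyltransferase NatB. All seedlings of both genotypes were 17 days old and had been grown under short days on 1xMS medium with 2 mM of the reductant dithiothreitol (DTT), to which the labels say they were moved at day 2 and at one developmental stage, so no value shows an effect of DTT itself. There were 3 arrays per genotype, which the labels describe as pools of whole seedlings, while a legend of the study describes individual plants. The same legend says that these 3 were picked from a larger number of extractions by the integrity and purity of their mRNA. The deposited values are log2 signals, corrected for background by RMA and then quantile normalized, which leaves all 6 arrays with the same set of values, from 1.75 to 14.58 with a median of 6.12 and a 25th percentile of 3.72. No detection calls were used, so a signal near the low end of this range cannot be told from background.

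Each gene was compared between the genotypes by limma on the log2 signals, with Benjamini-Hochberg adjustment over all 27827 loci, and differences are *naa20* minus wildtype. Calls took the limits of the study, so a called gene had to reach a 2-fold change with its adjusted p below 0.05. Beside this, an exact two-sided permutation test of a single gene cannot go below p = 0.1 with 3 arrays against 3. The *NAA20* transcript (AT1G03150) itself was at 7.44, 6.98 and 7.54 in *naa20* and at 8.69, 8.56 and 8.83 in wildtype, -1.38 log2 units apart (limma, standard error 0.16, adjusted p = 0.000689) with every *naa20* array below every wildtype array. Where its probes lie relative to the insertion was not examined. The arrays numbered 3 stood apart from the others of their genotype. On the third wildtype array 464 loci lay at least 1 log2 unit from the mean of the other wildtype arrays, against 114 and 77 for the first and the second, and on the third *naa20* array 390 did, against 132 and 126. Some results that rest on the arrays numbered 3 are also given without them.

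Of the 10 suberin genes, *FAR4* and *FAR5* were called lower in *naa20* and 0 were called higher (5 of the 10 had an unadjusted p under 0.05 with a negative difference and 1 with a positive one). The share of all loci at an unadjusted p under 0.05 was not counted, here or beside the lists below. It exceeds 17.4% lower and 16.6% higher, the shares that passed after adjustment, by an amount not counted. The counts at an unadjusted p are therefore not read as a result. Over all loci, 9.92% were called, 4.97% lower and 4.95% higher. With any fold difference, 4 of the 10 fell at an adjusted p under 0.05 (*FAR4*, *FAR5*, *CYP86A1* and *ASFT*), where 17.4% of all loci did, and *FAR1* rose, where 16.6% of all loci did, 33.9% in both directions together. The other 5 did not pass the test. The median log2 difference of the 10 genes was -0.33, beside -0.004 over all loci, and 8 of the 10 differences were negative. Without the 25% of loci with the lowest mean signal, which takes out *GPAT5*, *CYP86B1* and *ABCG2*, the median of the members left was -0.91. All *naa20* arrays lay below all wildtype arrays for 5 of the 10 genes, beside 24.1% of all loci, and above them for 1, beside 23.4%, so that the arrays did not overlap for 6 of the 10 and for 47.5% of all loci. In RNA of whole seedlings, fewer suberizing cells and less transcript per cell cannot be told apart.

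**Figure D1:**
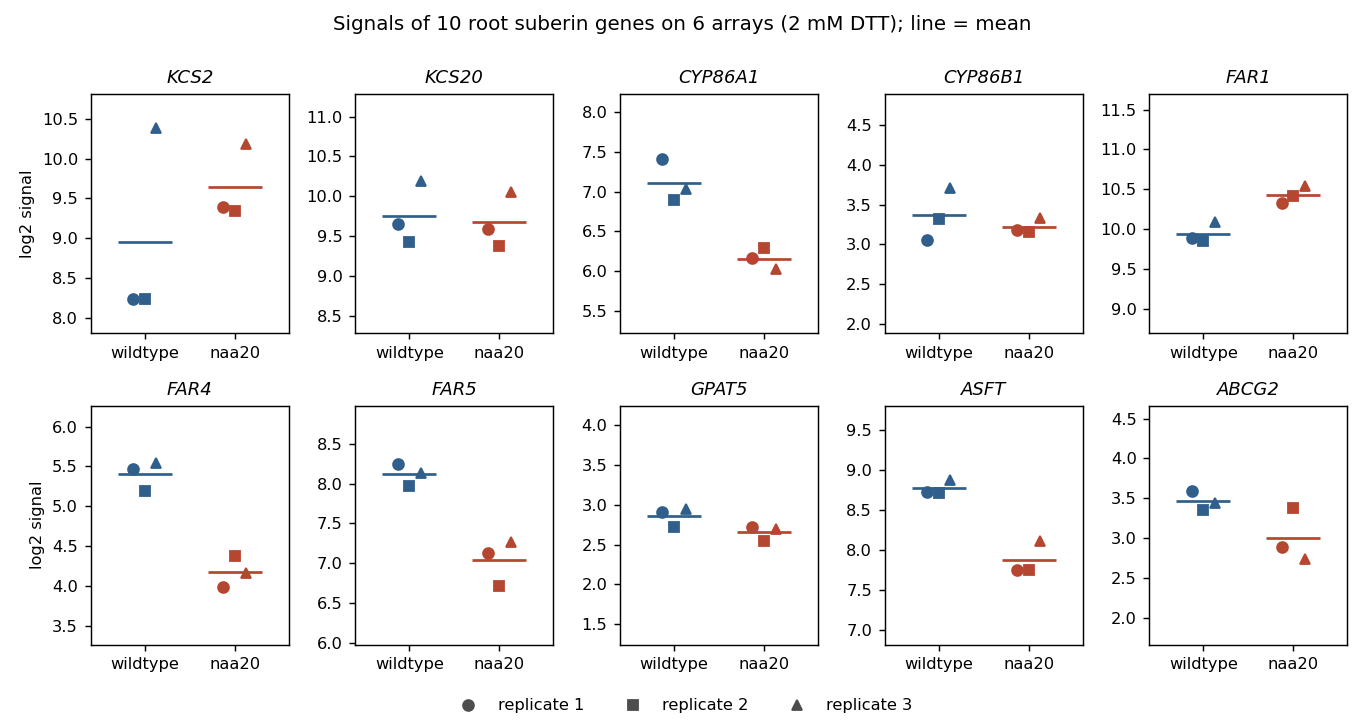
Log2 signal (vertical axis, each panel spanning the same range of units) of the 10 suberin genes in wildtype and *naa20* seedlings on 2 mM DTT, 1 point per array with the replicate number as its shape and the mean of 3 arrays as a line. The *naa20* arrays lie below the wildtype arrays for *CYP86A1*, *FAR4*, *FAR5*, *ASFT* and, narrowly, *GPAT5*, above them for *FAR1*, and the third wildtype array of *KCS2* lies at 10.38 with the other wildtype arrays at 8.24 and 8.23.

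Reduction of fatty acids to primary alcohols is the work of fatty acyl-CoA reductases, of which *FAR5*, *FAR4* and *FAR1* make the alcohols of successively longer chains in root suberin. *FAR4* had log2 signals of 3.99, 4.37 and 4.17 in *naa20* and of 5.47, 5.19 and 5.54 in wildtype. Every *naa20* array was lower than every wildtype array by a wide margin, and the means were 4.18 ± 0.19 and 5.40 ± 0.19 (SD, n = 3). The *naa20* signals lay not far above the 25th percentile of the arrays (3.72), where background may limit the fold. The difference was -1.22 (standard error 0.14, 95% interval -1.55 to -0.90, adjusted p = 0.000614 from limma), or 2.34-fold lower, and only 3.22% of all loci had a more negative one.

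*FAR5* had signals of 7.13, 6.71 and 7.27 in *naa20* and of 8.25, 7.97 and 8.13 in wildtype. The genotypes again did not overlap, and the second *naa20* array was the lowest. The difference was -1.08 (standard error 0.16, 95% interval -1.46 to -0.70, adjusted p = 0.00196 from limma), or 2.12-fold lower. Without that second *naa20* array it was -0.92 (adjusted p = 0.00335 from limma), just under the 2-fold limit.

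*FAR1* went the other way. Its signals were 10.32, 10.42 and 10.54 in *naa20* and 9.89, 9.85 and 10.09 in wildtype, so that each *naa20* array lay above each wildtype array. The difference was 0.48 (standard error 0.10, 95% interval 0.24 to 0.73, adjusted p = 0.0107 from limma), or 1.40-fold higher, short of the 2-fold limit, and over the 6 fits that omit 1 array it stayed between 0.43 and 0.55 (adjusted p from 0.00931 to 0.0439).

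Within each array, the log2 ratio of *FAR1* to *FAR4* was 6.33, 6.05 and 6.37 in *naa20* and 4.42, 4.66 and 4.55 in wildtype. The genotypes were thus apart by 1.71 in this ratio without overlap (p = 0.1 in an exact permutation test, the smallest possible, and 0.167 adjusted over 5 pairs of members). The ratio of *FAR1* to *FAR5* was apart by 1.56, also without overlap (exact permutation p = 0.1, adjusted 0.167). Both outcomes follow from the signals above and are no further result. *FAR1* lay above, and *FAR4* and *FAR5* below, all wildtype arrays on every *naa20* array. The pairs were chosen after the values were seen. The ratio of *FAR4* to *FAR5* overlapped between the genotypes, with a difference of -0.14 (exact permutation p = 0.6, adjusted 0.6).

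*FAR4* and *FAR5* are the nearest protein-coding neighbours on chromosome 3, with *FAR8* (AT3G44560) close by, and whether their probes share signal was not examined. *FAR8* was at 3.61, 3.62 and 3.45 in *naa20* and at 3.41, 3.44 and 3.63 in wildtype, a difference of 0.07 (adjusted p = 0.672 from limma), so it did not pass the test at a signal near the low end of the arrays. *FAR7* (AT5G22420) had a difference of 0.17 (adjusted p = 0.254), *FAR6* (AT3G56700), *FAR2* (AT3G11980), a gene of the pollen wall, and *FAR3* (AT4G33790), which makes alcohols of shoot waxes, had differences between -0.02 and 0.00. All of these were at or under 3.57 on every array, except the values of *FAR8* given above.

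Oxidation at the far end of the chain is carried out by cytochromes P450. *CYP86A1*, which acts on long-chain acids and whose loss takes away much of root suberin, was at 6.16, 6.29 and 6.03 in *naa20* and at 7.41, 6.89 and 7.03 in wildtype. The genotypes did not overlap, with means of 6.16 ± 0.13 and 7.11 ± 0.27 (SD, n = 3). The difference was -0.95 (standard error 0.15, 95% interval -1.31 to -0.60, adjusted p = 0.00268 from limma), 1.93-fold lower, so it passed the test and missed the 2-fold limit. It was -1.01 without the second *naa20* array and -1.06 without the second wildtype array, both past that limit.

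*CYP86B1*, which acts on very-long-chain acids, was at 3.18, 3.16 and 3.33 in *naa20* and at 3.06, 3.33 and 3.71 in wildtype. All 6 values were under the 25th percentile of the arrays, the genotypes overlapped, and the difference of -0.14 (95% interval -0.54 to 0.25, adjusted p = 0.569 from limma) did not pass the test. Without the third wildtype array it was 0.03. The log2 ratio of *CYP86A1* to *CYP86B1* was lower in every *naa20* array (2.98, 3.13 and 2.70) than in every wildtype array (4.36, 3.56 and 3.31), with p = 0.1 in an exact permutation test (adjusted 0.167). This pair too was chosen after the values were seen, and its ratio follows from the signals above and is no further result. The ratio also rests on *CYP86B1* signals that may be background.

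Among relatives of *CYP86A1* that serve the cutin of shoots, *CYP86A4* (AT1G01600) was at 5.25, 5.71 and 6.07 in *naa20* and at 6.83, 6.80 and 6.99 in wildtype. It fell by 1.20 (adjusted p = 0.00328 from limma), a larger difference than that of *CYP86A1*, and by 0.98 without the first *naa20* array. *CYP86A8* (AT2G45970) fell by 0.87 (adjusted p = 0.000884). *CYP86A2* (AT4G00360), with a difference of -0.24, and *CYP86A7* (AT1G63710), with -0.22, did not pass the test (adjusted p = 0.374 and 0.221). Over 16 relatives of the suberin enzymes in the P450, reductase and acyltransferase families, 2 were called lower, beside 4.97% of all loci, 5 fell with any fold, beside 17.4%, and 0 rose. Their median was -0.23, and it was -0.46 without the dimmest 25% of loci and -0.15 without the third wildtype array. The highest was *GPAT1* (AT1G06520), a mitochondrial acyltransferase of pollen development, with 0.38 (adjusted p = 0.113, and 0.022 with the replicate block). The lists are not separate. *CYP86A2*, *CYP86A4*, *CYP86A7*, *CYP86A8*, *GPAT4*, *GPAT6*, *GPAT8* and *FAR3* were also in the cutin and wax list below. *GPAT7* was also among the other suberin genes. The called relatives, *CYP86A4* and *GPAT8*, are thus counted in both lists.

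Acyl transfer joins the monomers. *ASFT*, which attaches ferulate to hydroxylated fatty acids and alcohols, was at 7.74, 7.75 and 8.12 in *naa20* and at 8.73, 8.72 and 8.88 in wildtype. The highest *naa20* array was still below the lowest wildtype array. The difference was -0.91 (standard error 0.13, 95% interval -1.21 to -0.61, adjusted p = 0.00149 from limma), 1.88-fold lower and under the 2-fold limit, and it was -1.03 without the third *naa20* array, past that limit. *FACT* (AT5G63560), a related transferase that attaches caffeate to fatty alcohols of root waxes, was at 6.83, 6.97 and 6.84 in *naa20* and at 7.47, 7.53 and 7.62 in wildtype. It fell by 0.66 (adjusted p = 0.00136), again without overlap.

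*GPAT5*, the acyltransferase that joins suberin acids to glycerol, gave signals of 2.72, 2.55 and 2.70 in *naa20* and of 2.91, 2.72 and 2.94 in wildtype. All lay under the 25th percentile of the arrays, and although the genotypes just failed to overlap, the difference of -0.20 (95% interval -0.44 to 0.03, adjusted p = 0.172 from limma) did not pass the test. Its close relative *GPAT7* (AT5G06090) was at 6.41, 6.43 and 6.90 in *naa20* and at 7.55, 7.09 and 7.16 in wildtype. *GPAT7* fell by 0.69 (adjusted p = 0.0221), with every *naa20* array below every wildtype array, although its adjusted p rose to 0.0786 without the first *naa20* array, 0.073 without the second and 0.067 without the first wildtype array. Of the other members of this family, *GPAT8* (AT4G00400), of shoot cutin, fell by 1.04 (adjusted p = 0.00056) and *GPAT4* (AT1G01610), its partner in cutin, had a difference of -0.46 (adjusted p = 0.0191), while *GPAT6* (AT2G38110), of flower cutin, had a difference of -0.06 (adjusted p = 0.731).

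Export was represented by *ABCG2*, a half-size transporter that acts with *ABCG6* and *ABCG20* in building the suberin barrier. It was at 2.88, 3.37 and 2.73 in *naa20* and at 3.59, 3.35 and 3.44 in wildtype, all under the 25th percentile of the arrays. The second *naa20* array lay within the wildtype range, and the difference of -0.46 (95% interval -0.87 to -0.06) had an adjusted p of 0.0798 from limma. Without that array it was -0.65 with an adjusted p of 0.00955. With each array left out in turn it ran from -0.65 to -0.33 (adjusted p from 0.00955 to 0.209 from limma). With the replicate block the adjusted p was 0.0918, so the fall of *ABCG2* rests on which array is left out.

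*ABCG6* (AT5G13580) was at 4.57, 4.47 and 4.87 in *naa20* and at 5.28, 5.04 and 5.02 in wildtype, and fell by 0.48 (adjusted p = 0.0294). *ABCG20* (AT3G53510) lay between 2.43 and 2.76 on all arrays, with a difference of 0.02 (adjusted p = 0.924). *ABCG1* (AT2G39350), also of root suberin, had a difference of 0.11 (adjusted p = 0.653), and *ABCG11* (AT1G17840), which serves cutin and wax export as well, one of 0.01 (adjusted p = 0.96).

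Elongation to very-long-chain acids begins with the β-ketoacyl-CoA synthases, of which *KCS2* and *KCS20* are a pair of close relatives with overlapping roles in root suberin. *KCS2* was at 9.39, 9.35 and 10.18 in *naa20* and at 8.24, 8.23 and 10.38 in wildtype. The third array was the highest in both genotypes, and in wildtype it exceeded the mean of the other arrays by 2.14. With all arrays the difference was 0.69 (95% interval -0.67 to 2.05, adjusted p = 0.416 from limma), not past the test. Without the third wildtype array it was 1.40 (adjusted p = 0.00819), and with both arrays numbered 3 left out, a setting chosen after the values were seen, it was 1.13 (adjusted p = 0.0011), both past the 2-fold limit. With each array left out in turn it ran from 0.33 to 1.40 (adjusted p from 0.00819 to 0.747 from limma). With the replicate block, which keeps all arrays, it was 0.69 with an adjusted p of 0.119 and did not pass.

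*KCS20* was at 9.59, 9.37 and 10.05 in *naa20* and at 9.65, 9.43 and 10.19 in wildtype. The arrays of the genotypes ran side by side, with a difference of -0.08 (95% interval -0.65 to 0.48, adjusted p = 0.832 from limma), which was 0.07 without the second *naa20* array and 0.13 without the third wildtype array. The third array was again the highest in both genotypes, by 0.57 in *naa20* and 0.65 in wildtype over the mean of the others. The log2 ratio of *KCS2* to *KCS20* overlapped between the genotypes, with a difference of 0.77 (exact permutation p = 0.4, adjusted 0.5). *KCS2* and *KCS20* resemble each other in sequence, and whether their probes share signal was not examined.

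**Figure D2:**
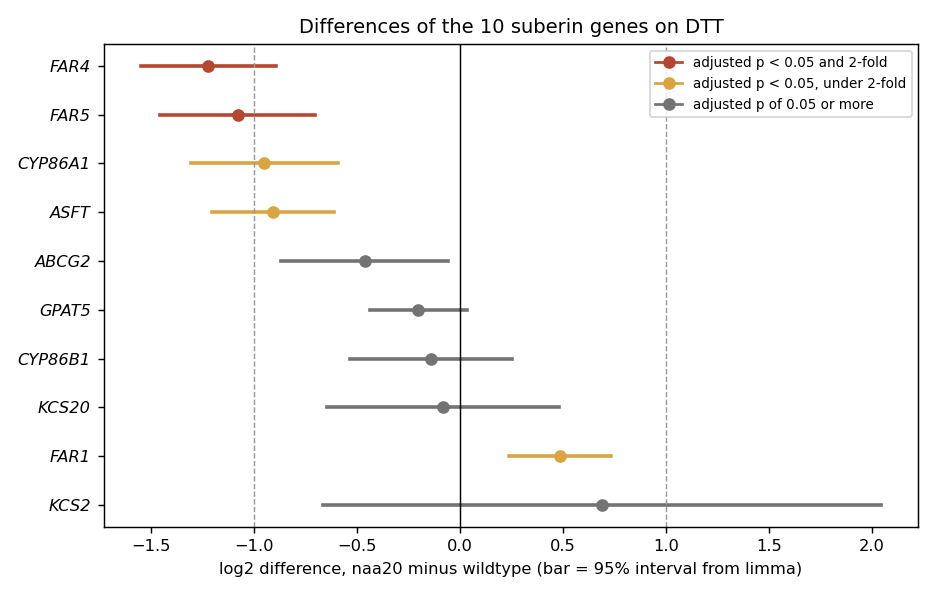
Log2 difference, *naa20* minus wildtype (horizontal axis), of each of the 10 suberin genes with its 95% interval from limma as a bar, coloured by adjusted p and fold. *FAR4* and *FAR5* are at or beyond 2-fold lower (dashed lines mark 2-fold), *CYP86A1* and *ASFT* just short of it, *FAR1* is higher, and the interval of *KCS2* runs from -0.67 to 2.05.

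In order of their differences, the 10 genes ran from *FAR4* over *FAR5*, *CYP86A1*, *ASFT*, *ABCG2*, *GPAT5*, *CYP86B1* and *KCS20* to *FAR1* and *KCS2*. The 95% intervals of all neighbours in this order overlapped, so no adjacent pair is set apart by them. The intervals of *FAR4*, *FAR5*, *CYP86A1* and *ASFT* lay wholly below that of *FAR1*. *GPAT5*, *CYP86B1* and *ABCG2*, whose 6 signals were each under the 25th percentile, all had differences that did not pass the test.

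The arrays numbered 3 bore on other members as well. For 5 of the 10 genes the third array was the highest in both genotypes, which held for 15.5% of all loci. It exceeded the mean of the other arrays by at least 0.5 in both genotypes for 2 of the 10, *KCS2* and *KCS20*, and for 1.31% of all loci. In the KCS family, gathered by symbol after these values were seen, this held for 5 of 21 genes. Beside *KCS2* and *KCS20* they were *KCS1* (AT1G01120), by 0.78 in *naa20* and 1.15 in wildtype, *KCS16* (AT4G34250), by 0.92 and 1.30, and *KCS19* (AT5G04530), by 1.11 and 1.46. Neither the labels nor the methods say what the arrays of one number share, and its part in these values was not tested.

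**Figure D3:**
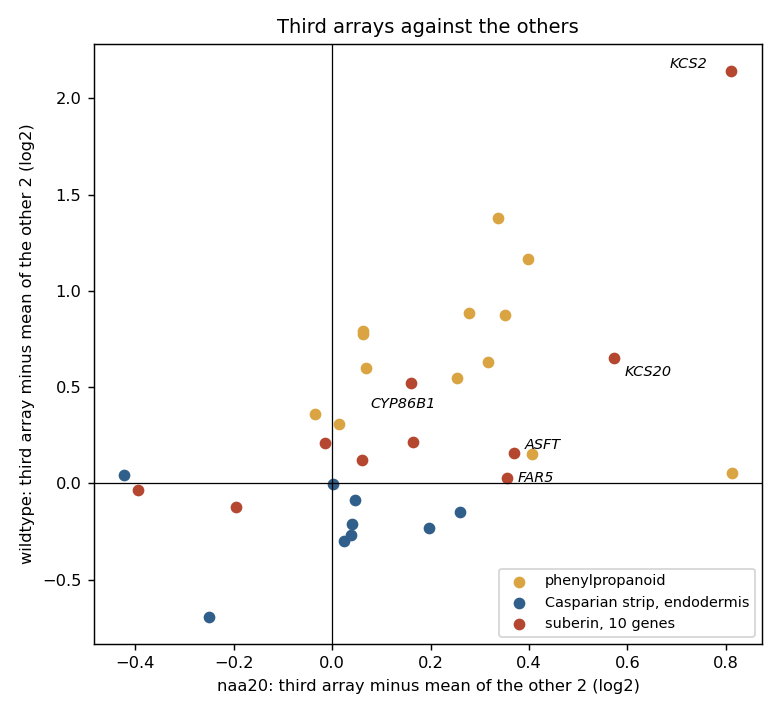
Array 3 minus the mean of the other arrays of the same genotype, in log2 units, for *naa20* (horizontal axis) and wildtype (vertical axis), 1 point per gene of 3 lists. *KCS2* (0.81 and 2.14) and *KCS20* (0.57 and 0.65) are the highest suberin genes on both axes, 12 of 13 phenylpropanoid genes lie right of 0 and all 13 above it, and genes of the Casparian strip and endodermis lie near or below 0 in wildtype.

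The other genes of the pathway were taken from a list of enzymes, transporters and carriers. For 8 of them the table of names gives the listed symbol. Of these 3 fell at an adjusted p under 0.05 with any fold (*GPAT7*, *FACT* and *ABCG6*), beside 17.4% of all loci, and 0 rose. At 2-fold 0 were called, beside 9.92% of all loci (3 lower and 0 higher at an unadjusted p under 0.05). With the replicate number as a block *KCS1* also passed, with the same difference and an adjusted p of 0.0398. The median difference of the 8 was -0.06, that of all 11 listed loci was -0.48, and the differences of the 8 ran from -0.69 in *GPAT7* to 0.41 in *KCS1*, which did not pass the test without the block (adjusted p = 0.431 from limma). Another 3 listed loci, AT2G48130, AT3G22620 and AT2G23540, have no symbol in that table and had the lowest differences of the list. With them 6 of 11 fell with any fold, beside 17.4% of all loci, and 2 of the 11 were called lower at 2-fold, beside 4.97%. AT2G48130 was at 7.07, 7.00 and 7.22 in *naa20* and at 8.36, 8.21 and 8.41 in wildtype, AT3G22620 fell by 1.24 (adjusted p = 0.00139) and AT2G23540 had a difference of -0.97 (adjusted p = 0.000356).

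Partners of the synthases in the elongase complex and enzymes that supply acyl-CoA were listed together. Of these 7 genes 2 fell, beside 17.4% of all loci (4 with the replicate block), and 1 rose, beside 16.6%. At 2-fold 0 were called, beside 9.92% of all loci (5 lower and 1 higher at an unadjusted p under 0.05), and the median was -0.35. *LACS2* (AT1G49430), an acyl-CoA synthetase of cutin synthesis, was lowest and fell by 0.55 (adjusted p = 0.0219 from limma), with an adjusted p of 0.078, 0.0714 and 0.0595 when the first or second *naa20* array or the third wildtype array was left out. *LACS4* (AT4G23850), another acyl-CoA synthetase, was highest and rose by 0.44 (adjusted p = 0.00694).

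Transcription factors tied to suberin were listed as well. Of these 11, 2 were called lower, beside 4.97% of all loci, 4 fell with any fold, beside 17.4%, 0 rose, and the median was -0.27. *MYB93* (AT1G34670), which is active in the endodermis over young lateral roots, was at 7.67, 7.71 and 7.89 in *naa20* and at 9.37, 9.20 and 8.96 in wildtype. It fell by 1.42 (standard error 0.13, adjusted p = 0.000242 from limma) without overlap, the lowest difference in this list. *WRKY9* (AT1G68150), a regulator of suberin P450 genes in roots, was at 3.12, 3.18 and 3.19 in *naa20*, under the 25th percentile of the arrays, and at 4.42, 3.98 and 4.21 in wildtype, so that its fall of 1.04 (adjusted p = 0.00075) is taken against signals that cannot be told from background. *MYB67* (AT3G12720) had a difference of -0.91 (adjusted p = 0.0019) and *NAC058* (AT3G18400) one of -0.67 (adjusted p = 0.00216).

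The remaining 7 regulators did not pass the test. *MYB39* (AT4G17785), also called SUBERMAN, had a difference of 0.08 (adjusted p = 0.544), *MYB53* (AT5G65230) one of 0.08 (adjusted p = 0.648), *MYB92* (AT5G10280) one of -0.28 (adjusted p = 0.133) and *MYB41* (AT4G28110) one of -0.24 (adjusted p = 0.261). *MYB9* (AT5G16770) and *MYB107* (AT3G02940), known from seed coat suberin, had -0.27 and -0.10 (adjusted p = 0.212 and 0.574). *MYB74* (AT4G05100) was highest with 0.47 (adjusted p = 0.392), its *naa20* arrays spreading from 4.71 to 6.29, and it was 0.92 (adjusted p = 0.0197) without the third *naa20* array.

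Ferulate for suberin comes from the phenylpropanoid pathway. Of 13 genes 1 was called higher, beside 4.95% of all loci, and 3 rose with any fold (5 with the replicate block), beside 16.6%. With any fold 1 fell, beside 17.4%, and 9 did not pass the test. The median was 0.49, and it was 0.78 without the third wildtype array and 0.31 without the second. *4CL5* (AT3G21230), a coumarate ligase, was at 7.80, 7.73 and 8.58 in *naa20* and at 6.52, 6.57 and 6.60 in wildtype, and rose by 1.47 (adjusted p = 0.00197 from limma). *4CL2* (AT3G21240) rose by 0.99 (adjusted p = 0.00413) and *C4H* (AT2G30490), the cinnamate hydroxylase, by 0.85 (adjusted p = 0.00771). *ALDH2C4* (AT3G24503), the aldehyde dehydrogenase that yields ferulate, was at 10.25, 10.28 and 10.67 in *naa20* and at 10.87, 10.91 and 11.04 in wildtype, and fell by 0.54 (adjusted p = 0.0182), a difference whose adjusted p was 0.0502 to 0.0654 without the first or second *naa20* array or either wildtype array numbered 2 or 3. On the arrays numbered 3 these genes were high, since that array was the highest in both genotypes for 11 of the 13, and without the third wildtype array the listed genes outside the 10 suberin genes that were called higher numbered 4 and not 1.

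Cutin and wax, the polyester and lipids of the shoot surface, are made by related enzymes. Of 22 such genes 4 were called lower, beside 4.97% of all loci, 8 fell with any fold, beside 17.4%, and 0 rose. With the replicate block 10 fell and 1 rose. The median difference was -0.28. Of the 4 called lower, *CYP86A4* and *GPAT8* were also among the relatives of the suberin enzymes counted above. *DCR* (AT5G23940), an acyltransferase of cutin, was at 8.20, 8.79 and 8.92 in *naa20* and at 10.17, 10.35 and 10.21 in wildtype, and fell by 1.61 (adjusted p = 0.000701 from limma). *CER3* (AT5G57800), of alkane synthesis for waxes, was highest with 0.62 (adjusted p = 0.111), and with 0.89 (adjusted p = 0.0147) without the third wildtype array. With the replicate block its adjusted p was 0.00686. Lower signals among lipid polyester genes were thus found for genes of shoot as well as of root barriers, and whether the lists differ from each other was not tested.

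**Figure D4:**
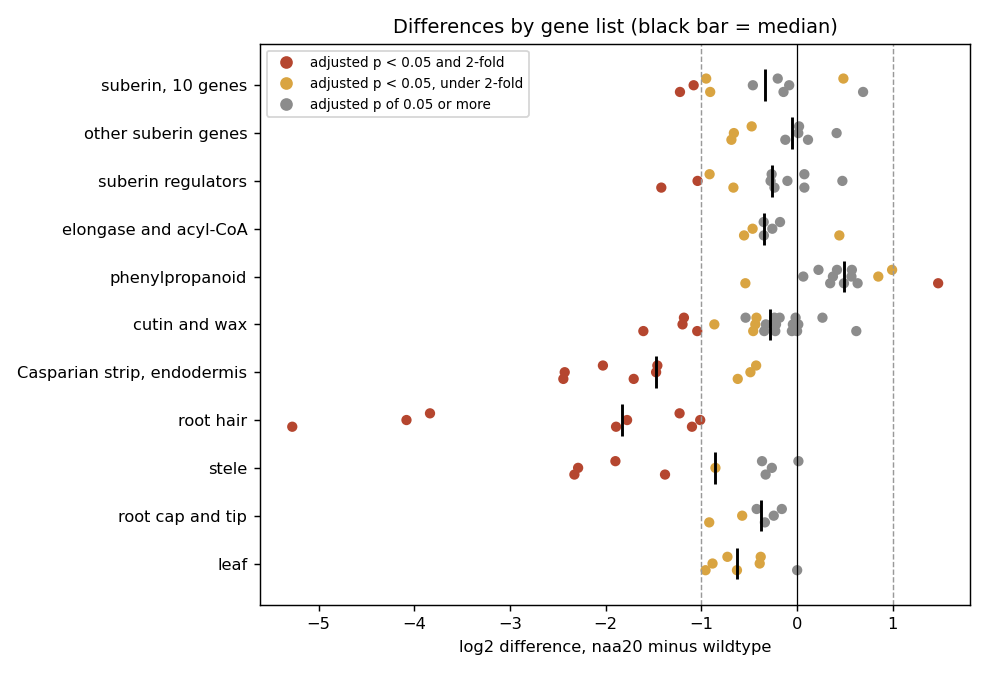
Log2 difference, *naa20* minus wildtype (horizontal axis), of every gene of 11 lists whose symbol the table of names gives, 1 point per gene with the list's median as a black bar, coloured by adjusted p and fold (dashed lines mark 2-fold). The 10 suberin genes spread from -1.22 to 0.69, root hair and Casparian strip genes lie further down, and 12 of 13 phenylpropanoid genes lie above 0.

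Markers of root and leaf tissue were set beside these values. In the endodermis and its Casparian strip, 6 of 9 genes were called lower, beside 4.97% of all loci, and all 9 fell with any fold, beside 17.4%. Their median was -1.47, and mean list signals were 5.35 to 5.37 in *naa20* and 6.67 to 7.00 in wildtype. *PER64* (AT5G42180), a peroxidase of the Casparian strip, was at 5.58, 5.73 and 5.69 in *naa20* and at 8.36, 8.04 and 7.93 in wildtype, and fell by 2.44 (adjusted p = 3.45e-05 from limma). *MYB36* (AT5G57620), the regulator of the strip, had the smallest difference in the list, at 2.96, 2.69 and 2.87 in *naa20* and 3.29, 3.39 and 3.12 in wildtype, all under the 25th percentile, a difference of -0.43 (adjusted p = 0.0236), and its adjusted p was between 0.0703 and 0.0834 without the second *naa20* array or the first or second wildtype array. *SCR* (AT3G54220), a defining gene of the endodermis, was well above the low end of the arrays in both genotypes and fell by 0.49 (adjusted p = 0.00449). The suberin genes had mean list signals of 6.31 to 6.51 in *naa20* and of 6.57 to 7.03 in wildtype. That mean joins genes under the 25th percentile with genes of high signal. Which cells these signals came from was not examined.

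All 8 root hair genes were called lower, beside 4.97% of all loci, with a median of -1.83. They ran from *LRX1* (AT1G12040), a wall protein of root hairs, with -5.27 (adjusted p = 2.15e-05 from limma) to *RHD2* (AT5G51060), an NADPH oxidase, with -1.01 (adjusted p = 0.0317). The call of *RHD2* was lost with each array left out in turn except the third *naa20* array. Of 9 stele genes 4 were called lower, beside the same 4.97%, with a median of -0.85. They ran from the transporter *HKT1* (AT4G10310) with -2.33 (adjusted p = 3.95e-05) to *SHR* (AT4G37650) with 0.01 (adjusted p = 0.958), which turned negative in several settings. Of 6 genes of root cap and root tip 0 were called, beside 9.92% of all loci, and 2 fell with any fold, beside 17.4% (3 lower and 0 higher at an unadjusted p under 0.05). They ran from *SMB* (AT1G79580) with -0.92 (adjusted p = 0.016) to *BRN2* (AT4G10350) with -0.16 (adjusted p = 0.399). *SMB*, a regulator of the root cap whose *naa20* signals were all under the 25th percentile, had an adjusted p of 0.0585 without the first wildtype array, and was past 2-fold without the third *naa20* array (-1.09, adjusted p = 0.0112) or the second wildtype array (-1.01, adjusted p = 0.0317), with array weights (-1.03, adjusted p = 0.00826) and without both arrays numbered 3 (-1.09, adjusted p = 0.023). The part of these root markers in the suberin values was not tested.

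Of 7 leaf genes 6 fell with any fold, beside 17.4% of all loci, and 0 were called at 2-fold, beside 9.92%, with a median of -0.63. They ran from *PSAD-1* (AT4G02770), of photosystem I, with -0.96 (adjusted p = 0.000336 from limma) to *RBCS1A* (AT1G67090), the small subunit of Rubisco, which was at 14.18 on all 6 arrays, near the top of the normalized range. *PSAD-1* passed 2-fold without the first *naa20* array (-1.01, adjusted p = 0.00163) and without the first wildtype array (-1.01, adjusted p = 0.00175).

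The genes with profiles most like that of the suberin genes were sought by the root mean square distance, over 6 arrays, of centred log2 signals from the median centred profile of the 10 genes. The 5 nearest loci were *EDA21* (AT4G13235), *BPC2* (AT1G14685), *KAC2* (AT5G65460), *PHT4;2* (AT2G38060) and *CDS2* (AT4G22340), at distances of 0.04 to 0.05. All 5 had *naa20* arrays below the wildtype arrays, with differences between -0.54 and -0.44. The median profile was itself lower in *naa20*, so this direction and size follow from how the loci were chosen. The nearest, *EDA21*, was at 6.32, 6.31 and 6.44 in *naa20* and at 6.90, 6.70 and 7.05 in wildtype. The median profile hides the spread of the 10 genes themselves, whose differences ran from -1.22 to 0.69.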

How the data were processed

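Total RNA of whole seedlings was hybridized by the authors to Affymetrix Arabidopsis Gene ST arrays, 3 per genotype. The deposited values are log2 signals, 1 per locus and array, which the authors made by RMA background correction and quantile normalization with a custom probe annotation based on TAIR gene definitions. The genome build is not given in the sources used here. All 6 columns hold the same sorted values, so signals are relative within an array, and precision is limited by how few arrays there were. Detection calls, probe-level signals and the arrays without DTT were not analysed here.

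Genes were named through the RefSeq table of the assembly TAIR10.1, which gives the listed symbol for 107 of 113 other genes and for all 10 suberin genes. The suberin genes and all lists were chosen with earlier results of these data known. Differences were fitted by lmFit and eBayes of limma 3.58.1 under R 4.3.3, without a covariate, adjusted over 27827 loci and called at an adjusted p under 0.05 and 2-fold. The fit was also run on simulated data with noise drawn independently for each array and planted changes larger than those of the suberin genes. That run cannot speak to deviations shared by arrays of one number, and no result here rests on it. The genes named were the 10 suberin genes, *NAA20*, the lowest and highest of each list and the 5 nearest profiles, and others were named after their values were seen, as were the 5 pairs of members. Promoter motifs and protein identity were not examined.

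The labels number the arrays 1 to 3 in both genotypes. Deviations from the genotype means of equally numbered arrays correlated with r = 0.176, 0.19 and 0.385, all above the limit of 0.1 set for treating the numbers as pairs, although arrays 1 and 2 correlated with each other's partners nearly as well (0.174 and 0.145). The pairing comes from these values, not from a stated shared batch. Although the limit was passed, tests here are without the replicate block unless it is named. Which listed genes passed at any fold depends on that choice. Alternatives were another moderation of variances, normalization, array weights, a filter on dim loci, the replicate block, other fold and p limits, all listed loci, each array left out and, added after the data were seen, both arrays numbered 3 left out. If the arrays are not separate cultures, p-values measure only the spread between these samples.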

Additional observations from a re-analysis of the deposited data

How the results depend on the processing

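The results were recomputed under 17 alternatives. Normalizing the deposited values again by quantiles or centring them on medians changed no value, since they already share one distribution, and so tested nothing, and the filter on dim loci left 7 of the 10 suberin genes. With the replicate number as a block, *FAR4* and *FAR5* remained called lower (adjusted p = 0.00279 and 0.00157 from limma), 2809 loci were called, and the block changed no 2-fold call of a suberin gene or of *NAA20* and no total of called listed genes beyond 1.5 times. With any fold, 5118 loci were then lower and 4711 higher, and *KCS1*, *CER3* and *GPAT1* passed. With no fold limit, 4 suberin genes were lower and 1 higher, since *CYP86A1* (-0.95), *ASFT* (-0.91) and *FAR1* (0.48) passed, 48 other listed genes were lower and 4 higher, and 9447 loci passed, 4836 of them lower. At 4-fold, 0 suberin genes passed, *FAR4* (-1.22), *FAR5* (-1.08) and *NAA20* (-1.38) included, and 8 listed genes were lower, 0 higher, and 638 loci passed, 226 of them lower. These limits change only the fold asked for. With array weights 2 listed genes were higher and *SHR* was -0.0402. With both arrays numbered 3 left out, 1 suberin gene was higher (*KCS2*, 1.13), 2 listed genes were higher and *SHR* was -0.10. With each array left out in turn, 2 to 3 suberin genes were lower and 0 to 1 higher, 1 to 4 listed genes were higher, and 2586 to 2897 loci were called. The differences then ran from -1.20 to -0.92 for *FAR5*, -1.06 to -0.80 for *CYP86A1*, -1.03 to -0.85 for *ASFT*, 0.33 to 1.40 for *KCS2*, -0.27 to 0.13 for *KCS20*, -0.30 to 0.03 for *CYP86B1* and -0.12 to 0.15 for *SHR*, and the median of the other suberin genes from -0.126 to 0.000977. *SHR* was -0.12 without the third *naa20* array and -0.01 without the first wildtype array, and *KCS20* was 0.07 without the second *naa20* array and *CYP86B1* 0.0314 without replicate 3 of wildtype. The causes were not tested. The signals of *GPAT5*, *CYP86B1* and *ABCG2* lie where background limits what can be measured.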
